A study of Mus musculus with 6 samples.

Results

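The genes described here are 8 integrin subunit genes that T cells use for adhesion and homing, Itgae, Itgal, Itga4, Itga6, Itgav, Itgb1, Itgb2 and Itgb7. They were chosen by name from the protein-coding genes of the RefSeq annotation, by a rule that sets no threshold on accessibility. Earlier results of these data were known when the choice was made. Within 10 kb of their annotated spans lay 65 accessible regions, of 64817 regions in the series. Accessibility was read out with ATAC-seq. The transposase Tn5 cuts open chromatin and leaves sequencing adapters, so that peaks of reads mark open sites. The 3 KO libraries came from mice labelled il33-/- on the C57BL6 strain, which lack the cytokine interleukin-33, and the 3 WT libraries from C57BL6 mice. All mice of both groups had received 300000 cells of the B16.F10 melanoma line under the skin, and at day 14 regulatory T cells (Tregs) were sorted from the lymph nodes that drain the tumour. The sort took CD4+CD25+GITR+ cells, and the labels also call them Foxp3+. Neither the age and number of mice behind a library, nor which part of Il33 is deleted, is given in the labels, so the p-values speak of the spread among these libraries alone, and that spread may be technical. The comparison addressed whether chromatin at these genes differed in Tregs of tumour-bearing mice without Il33.

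Integrins are adhesion receptors made of an α and a β subunit, both of which span the cell membrane. The pair decides which ligand is bound, so the same β subunit serves different receptors. In T cells they slow and arrest cells in blood vessels, stabilise contact with other cells and hold cells in tissues. αL with β2 forms LFA-1, which binds the ICAM proteins on other cells. αE (CD103) with β7 binds E-cadherin on epithelium, and α4 pairs with β7 to bind the gut vessel ligand MAdCAM-1 or with β1 to bind VCAM-1. α6 pairs with β1 to bind laminin, and αv pairs with several β subunits, some of which release active TGF-β from its latent form.

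RefSeq promoter entries on GRCm38.p6, the assembly behind mm10, were matched for Itga4, Itgav, Itgb1 and Itgb7. They are shown because each lay wholly inside a region called in all 6 libraries, and at Itga4, Itgav and Itgb1 that region was the tallest of the gene. Each sequence runs 5′ to 3′ on the strand of the gene, with 250 bases before and 50 bases from the annotated start. Capitals mark matches to letters taken for transcription factor families that T cells use. These were RUNX (TGNGGT, looser than the usual TGYGGT, where Y is C or T), ETS (CGGAAG) and the GC box of the Sp family (GGGCGG). AP-1 (TGANTCA) and forkhead, the family of Foxp3 (TGTTTAC), were searched as well. Both strands were searched, and none of the matches shown overlap each other.
Itga4: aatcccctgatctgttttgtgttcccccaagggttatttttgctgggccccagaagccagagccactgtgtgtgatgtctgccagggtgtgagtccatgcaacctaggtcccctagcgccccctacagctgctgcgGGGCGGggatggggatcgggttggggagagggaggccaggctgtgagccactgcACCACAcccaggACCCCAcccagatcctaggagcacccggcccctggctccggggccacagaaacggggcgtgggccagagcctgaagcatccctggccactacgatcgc
Itgav: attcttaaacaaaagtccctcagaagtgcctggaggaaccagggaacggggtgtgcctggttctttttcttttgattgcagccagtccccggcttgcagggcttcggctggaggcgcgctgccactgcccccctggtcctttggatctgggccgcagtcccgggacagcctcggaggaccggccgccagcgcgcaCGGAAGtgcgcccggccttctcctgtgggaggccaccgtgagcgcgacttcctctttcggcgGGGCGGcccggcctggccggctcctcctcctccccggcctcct
Itgb1: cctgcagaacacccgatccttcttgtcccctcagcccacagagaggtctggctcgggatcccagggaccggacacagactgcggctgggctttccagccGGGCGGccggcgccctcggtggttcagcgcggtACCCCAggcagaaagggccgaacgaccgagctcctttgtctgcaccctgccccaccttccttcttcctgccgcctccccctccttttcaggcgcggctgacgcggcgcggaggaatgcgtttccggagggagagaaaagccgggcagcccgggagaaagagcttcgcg
Itgb7: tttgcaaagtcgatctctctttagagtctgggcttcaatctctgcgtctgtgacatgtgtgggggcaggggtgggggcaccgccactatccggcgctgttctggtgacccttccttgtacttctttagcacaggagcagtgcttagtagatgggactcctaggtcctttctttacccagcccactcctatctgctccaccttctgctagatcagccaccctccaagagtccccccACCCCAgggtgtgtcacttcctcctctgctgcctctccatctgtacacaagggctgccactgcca
The Itga4 sequence is chr2:79255176-79255475 on the plus strand, that of Itgav chr2:83724147-83724446 on the plus strand, that of Itgb1 chr8:128685404-128685703 on the plus strand and that of Itgb7 chr15:102231886-102232185 on the minus strand. The loose RUNX letters stood in Itga4 at positions -60 and -48 from the start, in Itgb1 at -118 and in Itgb7 at -15, each as the reverse complement. The match at -60 in Itga4 read ACCACA, which is TGTGGT on the other strand and within the usual letters. The matches at -48 in Itga4 and in Itgb1 and Itgb7 read ACCCCA, which is TGGGGT and outside the usual letters. Of all 32851 promoters in the table, 45.8% held the loose letters, and the share that held TGYGGT was not computed. The GC box stood in Itga4 at -114, in Itgav at 8 and in Itgb1 at -151, against 35.7% of all promoters, and the ETS motif in Itgav at -55, against 16.9%. The AP-1 and forkhead letters, held by 7.81% and 3.65% of all promoters, were not in these 4 windows. Itgav and Itgb1 were rich in CpG, with 24 and 27 CpG and a GC content of 67.3% each. Itga4 had 10 CpG and 64.3% GC, and Itgb7 had 5 CpG and 56.3% GC, where the median promoter had 7 CpG and 52.7% GC.

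The summits, the points of highest coverage, placed open chromatin at these starts in both genotypes. At Itgav, the summit lay 5, 11 and 8 bases before the start in the KO libraries, and at 4, -8 and 11 bases from it in the WT libraries. At Itga4, it lay at -142, -148 and -119 in KO and at -125, -98 and -109 in WT, close to the GC box of the printed sequence. At both genes all 6 summits fell inside the printed sequence. At Itgb1, the summits were spread over 244, 18 and -223 in KO and 13, -66 and -9 in WT. The Itgb7 region had summits at 877, 866 and 45 bases in KO and at -32, -25 and 904 in WT, so that both groups held libraries with a summit near the start and libraries with one inside the gene.

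The lists differed in depth before any integrin was considered. The KO libraries kept 8.21, 4.72 and 10.3 M tags (mega) after filtering and listed 42408, 37266 and 42738 peaks, and the WT libraries kept 13.1, 12.9 and 15.2 M tags and listed 53251, 55939 and 52836 peaks. Depth and genotype cannot be told apart here, since the deepest KO library held fewer tags than the shallowest WT library, and absence from a list means only that no call was made at that depth. All 5 Treg genes of a marker list (Foxp3, Il2ra, Tnfrsf18, Ctla4, Ikzf2) and all 4 T cell genes had a region called in all 6 libraries. So did Pax5, Ebf1 and Cd79a of 4 B cell genes, 2 of 5 CD8 T and NK cell, 3 of 5 myeloid and 3 of 5 melanoma genes, while Ms4a1, Cd8a, Klrb1c, Ncr1, Lyz2, Csf1r, Tyr and Dct had none. Over the series, 14328 of 21900 protein-coding genes had a region called in all 6 libraries. A region within 10 kb of a marker gene can also belong to a neighbouring gene. Peaks at the 4 B cell genes numbered 8 to 11 in KO and 13 to 16 in WT, which as a share of the list was 0.0215% to 0.0259% in KO and 0.0244% to 0.0303% in WT. Those at the CD8 T and NK cell genes numbered 4 to 6 in KO and 8 in each WT library, those at the myeloid genes 7 in each KO and 8 in each WT library, and those at the melanoma genes 7 to 10 in KO and 8 to 11 in WT. As a share of the list, the CD8 T and NK cell genes held 0.0107% to 0.0141% in KO and 0.0143% to 0.0151% in WT. The myeloid share turned round, at 0.0164% to 0.0188% in KO and 0.0143% to 0.0151% in WT. The melanoma share overlapped, at 0.0187% to 0.0236% in KO and 0.0151% to 0.0207% in WT. The part of such cells in the results below was not tested.

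Fewer peaks were called at the integrin genes in KO Tregs, at 0.824 times the WT mean, while the whole KO lists were 0.756 times as long as the WT lists. The 8 genes held 51, 42 and 47 peaks in the KO libraries and 59, 57 and 54 in the WT libraries. The KO mean was 46.7 ± 4.51 and the WT mean 56.7 ± 2.52 (SD, n = 3 each), and the groups did not overlap (two-sided exact permutation test, p = 0.1, the smallest that 3 against 3 libraries allow). As a share of each list the direction turned round, with 0.120%, 0.113% and 0.110% in KO against 0.111%, 0.102% and 0.102% in WT, and the groups overlapped (0.114% ± 0.00533 in KO, 0.105% ± 0.00505 in WT, n = 3 each, exact p = 0.2). Peaks were also shorter in KO, at 442, 457 and 519 bp on average against 557, 573 and 550 bp in WT. The integrin peaks covered 22.0 ± 2.63 kb of the genome in KO and 31.8 ± 1.76 kb of it in WT (SD, n = 3 each, exact p = 0.1).

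**Figure D1:**
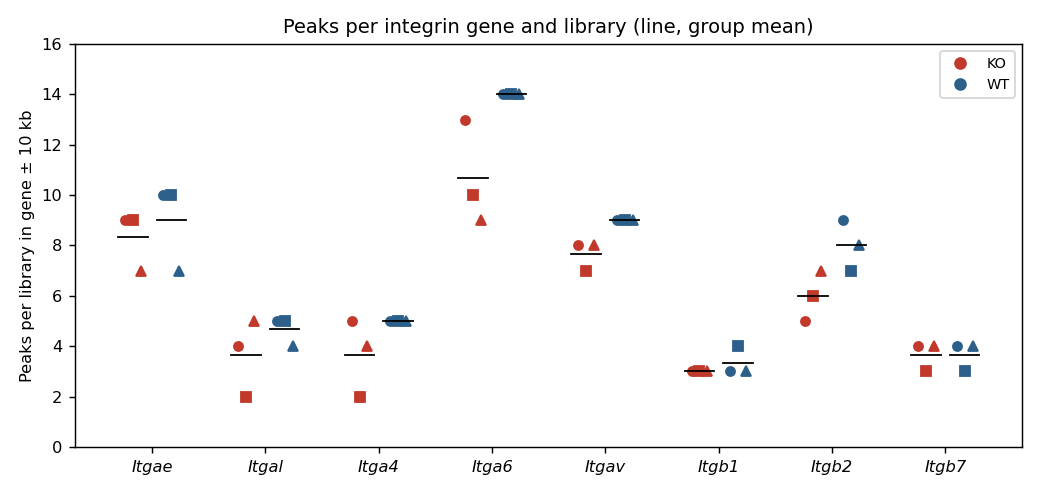
Number of peaks within 10 kb of each integrin gene (vertical axis) in each library, KO in red left of WT in blue; circles, squares and triangles are KO replicates 1, 2 and 4 and WT replicates 2, 4 and 6, and lines are group means. The groups separate at Itga6, with 9 to 13 peaks in KO and 14 in each WT library, and at Itgav, with 7 to 8 in KO and 9 in WT, and overlap at the other genes.

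By gene, Itga6 and Itgav were the members whose peak counts separated the genotypes. Itga6 held 13, 10 and 9 peaks in KO and 14, 14 and 14 in WT, and Itgav held 8, 7 and 8 in KO and 9, 9 and 9 in WT. Both had an exact p of 0.1 and, after Benjamini-Hochberg adjustment over 16246 protein-coding genes, 0.629, the lowest adjusted value of any gene, and 0 genes had an unadjusted p under 0.05. Counts lay lower in KO with no overlap at 2 of 8 members, where 15.5% of all these genes did so. None of the members lay higher in KO, against 0.388% of all genes. Per 10000 peaks of the list, no member lay lower in KO with no overlap, against 7.60% of all genes, and Itgav and Itgb7 lay higher, against 31.0%. The remaining 6 genes overlapped. Itgae had 9, 9 and 7 peaks in KO and 10, 10 and 7 in WT, Itgb1 had 3 in each KO library and 3, 4 and 3 in WT, and Itgb7 had 4, 3 and 4 in each genotype.

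Open regions at the integrin genes were called in every library about as often as regions elsewhere. Of the 65 regions, 30 (46.2%) were called in all 6 libraries, against 45.4% of all regions. The regions called in all 6 were longer, with a median of 814 bp against 332 bp for those called in fewer libraries. By position, 41 of the 65 lay inside a gene (18 called in all 6 libraries), 11 within 1 kb of a gene end (6 called in all 6) and 13 further out in the flank (6 called in all 6). Of the flank regions 5 overlapped the span of another gene, as did 4 of those inside, so these regions need not belong to the integrin.

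Regions called in all 3 WT libraries and retained in KO were taller in WT than those not retained. Of 47 such regions, 30 (63.8%) were called in all 3 KO libraries, against 67.6% over the series, 10 in 2 of them, 4 in 1 and 3 in none. KO replicates 1, 2 and 4 missed 7, 11 and 9 of the 47. Their height in WT, as pileup (the number of extended tags over the summit) divided by the median pileup of all peaks in the same list, had a median of 1.86 for those retained in all 3 KO libraries and 0.840 for the other 17. Over all regions those medians were 1.65 and 0.654. Regions that all 3 WT libraries and none of the KO libraries called, here WT-only regions, numbered 3 of 65, or 4.62%, against 4.66% of all regions. No member had a KO-only region, against 0.0185% of all regions. Without KO replicate 1 the WT-only count was 6, so that this library alone kept 3 regions out of the class. Leaving out a library makes this class easier to enter for any region. The share over all regions was not computed for that setting.

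**Figure D2:**
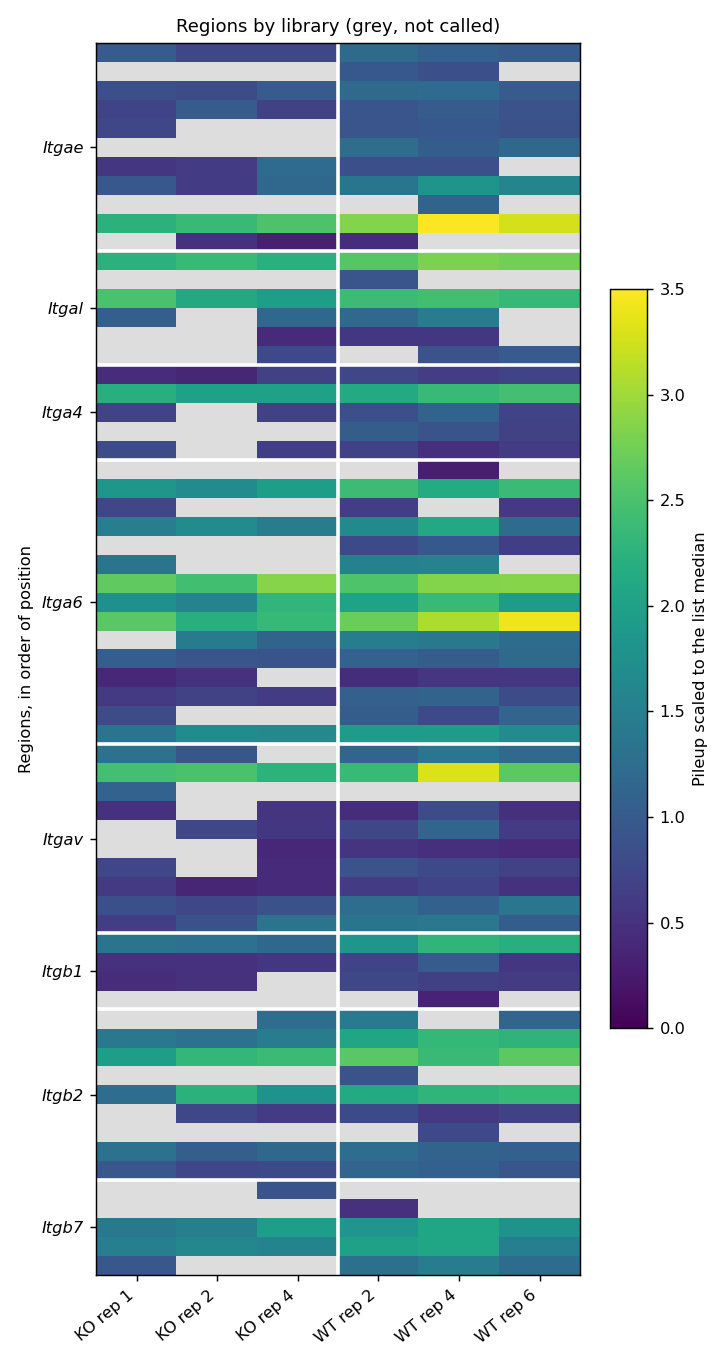
Every one of the 65 regions (rows, by gene and position) in each library (columns, KO replicates 1, 2 and 4 left of WT replicates 2, 4 and 6), coloured by pileup over the median of the list, with grey where the region was not called. KO columns have 38 to 45 of the 65 regions called and WT columns 50 to 58, and the 30 rows without grey hold the tallest regions of every gene.

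Heights of the 30 shared regions followed the scale they were put on. Relative to the median of the list, KO was lower with no overlap at 10 regions (33.3%), against 48.2% of all 29419 shared regions, and higher at none, against 0.197%. On this scale the median region of the whole series had a log2 ratio of KO over WT of -0.31, and the median integrin region -0.34. The list median stood lower against the shared regions in WT: the median pileup of shared regions over that of the list was 1.35, 1.25 and 1.30 in KO and 1.61, 1.74 and 1.62 in WT. Relative to the median of shared regions, KO was lower with no overlap at 2 regions (6.67%), against 6.90% of all, and higher at 4 (13.3%), against 13.7%, and the median log2 ratio of integrin regions was 0.01. Per M tags, 1 region was lower and 1 higher, against 3.34% and 4.70% of all. The count of 10 lower regions relative to the list median was 16 without KO replicate 1, 18 without KO replicate 4 and 17 without WT replicate 6. Leaving out a library makes no overlap easier to reach and raised the shared integrin regions from 30 to 33, 33 and 31. The share over all shared regions was not computed for these settings. The heights are the authors' values per peak and are described, not tested. In bulk libraries, fewer cells with an open site and a site less open in each cell cannot be told apart.

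**Figure D3:**
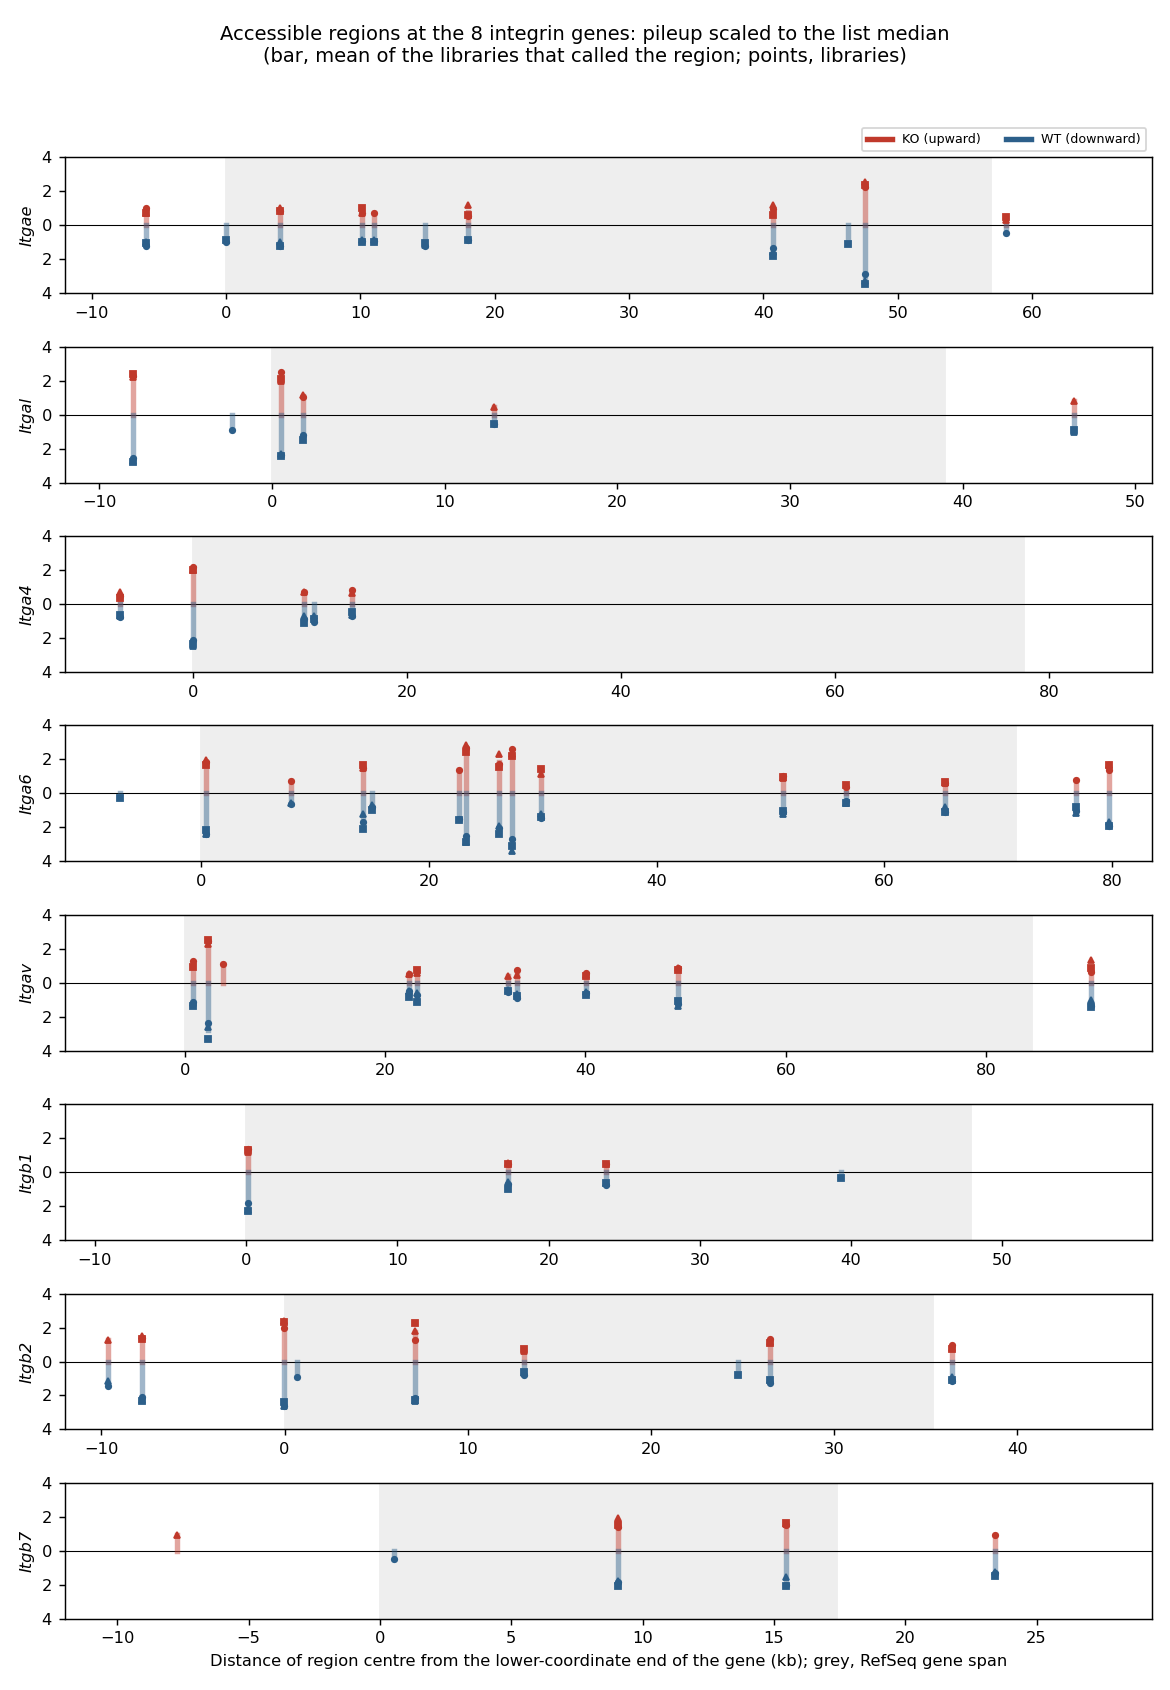
Pileup over the list median at each region of the 8 genes (vertical axis; KO in red upward, WT in blue downward; bars are means of the libraries that called the region, and circles, squares and triangles are the libraries as numbered in the peak counts) by distance in kb of the region's centre from the lower-coordinate end of the gene, with the RefSeq span in grey. The tallest bars stand near the lower end in Itga4, Itgav, Itgb1 and Itgb2, and well inside the span in Itgae and Itga6.

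The leukocyte pair Itgal and Itgb2, which encode the subunits of LFA-1, was open at the lower-coordinate end of each gene in every library. The tallest Itgal region, chr7:127287707-127288534, lay 8.02 kb below the gene within the annotated span of Gm31897 and reached 2.25, 2.38 and 2.22 times the list median in KO and 2.57, 2.81 and 2.76 in WT. The groups did not overlap on this scale, but did relative to shared regions, at 1.67, 1.90 and 1.70 in KO and 1.60, 1.62 and 1.70 in WT. The region over the lower end of Itgal, chr7:127295872-127297513, stood at 2.50, 2.12 and 1.96 list medians in KO and 2.39, 2.44 and 2.34 in WT, which overlapped. Relative to shared regions it was higher in KO, at 1.85, 1.70 and 1.50 against 1.49, 1.40 and 1.45 in WT, with a narrow gap between the nearest libraries.

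Itgb2, whose β2 subunit is shared by all leukocyte integrins of this class, had its tallest region at its lower end, chr10:77529877-77530676. It stood at 1.95, 2.31 and 2.39 list medians in KO and 2.61, 2.37 and 2.62 in WT, and the groups overlapped by 1 library. A region 7.77 kb below the gene, chr10:77522102-77523020, within the span of Gm36040, was lower in KO, at 1.40, 1.31 and 1.48 list medians against 2.07, 2.33 and 2.28 in WT (log2 ratio -0.67). It stayed lower relative to shared regions, at 1.04, 1.05 and 1.13 in KO and 1.29, 1.34 and 1.40 in WT (log2 ratio -0.32). Per M tags the groups overlapped, with 3.41, 4.45 and 3.30 in KO against 4.44, 4.87 and 4.33 in WT. Inside the gene, chr10:77556541-77557129 was higher in KO relative to shared regions, at 0.963, 0.850 and 0.900 against 0.778, 0.638 and 0.660 in WT (log2 ratio 0.39), and overlapped on the other scales. It is named after its values were seen. Itgb2 had 5, 6 and 7 peaks in KO and 9, 7 and 8 in WT, and Itgal had 4, 2 and 5 in KO and 5, 5 and 4 in WT.

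Itgae, the gene of CD103, had its tallest region inside its span but over the nested gene Haspin, a histone kinase, at chr11:73137478-73138682. It reached 2.25, 2.38 and 2.52 list medians in KO and 2.86, 3.48 and 3.28 in WT, with no overlap, and 1.67, 1.90 and 1.93 against 1.78, 2.00 and 2.02 relative to shared regions, with overlap. Because the region lies over Haspin, its height cannot be assigned to Itgae. A region that overlapped no other gene, chr11:73130866-73131575, stood at 0.950, 0.625 and 1.17 list medians in KO and 1.36, 1.81 and 1.59 in WT. It was also lower in KO per M tags, at 2.31, 2.12 and 2.62 against 2.91, 3.79 and 3.02 in WT, and was the region that separated downward on that scale, whereas relative to shared regions the groups overlapped. The WT-only region of Itgae, chr11:73105076-73105584, lay 14.8 kb into the span and had pileups of 35, 28 and 34 tags in WT. At the lower end of the gene, chr11:73090418-73090649 was called in no KO library and in WT replicates 2 and 4, with 27 and 23 tags.

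Itgb7, the partner of αE and α4, overlapped between the genotypes in each measure of height. Its tallest region, chr15:102224320-102225821, lay 9.08 kb into the span and stood at 1.40, 1.50 and 1.96 list medians in KO and 1.82, 2.07 and 1.79 in WT, and the groups overlapped. The region over its printed promoter, chr15:102230685-102232228, stood at 1.50, 1.62 and 1.57 in KO and 2.00, 2.07 and 1.52 in WT, also with overlap. Itgb7 was the member whose mean height over its shared regions overlapped between the genotypes relative to the list median, at 1.45, 1.56 and 1.76 in KO and 1.91, 2.07 and 1.66 in WT.

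Itga4, whose α4 subunit enters homing receptors of both the gut and inflamed tissue, had its tallest region over the printed promoter, chr2:79254609-79256187. It stood at 2.20, 2.00 and 2.00 list medians in KO and 2.14, 2.37 and 2.45 in WT, with overlap. Relative to shared regions it was higher in KO, at 1.63, 1.60 and 1.53 against 1.33, 1.36 and 1.51 in WT, with a narrow gap. Per M tags the groups overlapped, at 5.36, 6.77 and 4.46 in KO and 4.59, 4.95 and 4.66 in WT. Its WT-only region, chr2:79266562-79266846, lay 11.3 kb into the gene and had 29, 24 and 20 tags in WT. Itga4 held 5, 2 and 4 peaks in KO and 5 in each WT library, and the library with 2 was the shallowest, KO replicate 2.

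Itgb1, which encodes the widely used β1 subunit, was lower at its promoter in KO on both scales made from the lists. The region over the printed sequence, chr8:128685036-128686482, held 27, 21 and 27 tags in KO and 51, 62 and 64 in WT. This was 1.35, 1.31 and 1.17 list medians in KO and 1.82, 2.30 and 2.21 in WT (log2 ratio -0.72, against -0.31 for the median shared region). Relative to shared regions the KO values were 1, 1.05 and 0.900 and the WT values 1.13, 1.32 and 1.36 (log2 ratio -0.37). Per M tags KO replicate 2, at 4.45, lay among the WT values of 3.90, 4.80 and 4.20, while KO replicates 1 and 4 lay below them at 3.29 and 2.62. Along with the Itgb2 flank region it was one of the 2 shared integrin regions lower in KO relative to shared regions, a share near that of all regions. Its summits lay at different points between libraries. With 200 bp summit windows in place of whole peaks, the mean height of Itgb1 had a log2 ratio of -0.53 relative to the list median. That is the value of the region 17.3 kb into the gene alone, so the promoter was not called in all 6 libraries as 1 window.

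Itga6, the laminin receptor subunit, had the most regions of the 8 genes, 15, of which 8 were shared. The region over its lower end, chr2:71786530-71788043, stood at 1.85, 1.69 and 1.96 list medians in KO and 2.39, 2.15 and 2.38 in WT, with no overlap. The tallest region by the mean of all libraries, chr2:71813876-71814421, lay 27.3 kb into the gene and stood at 2.60, 2.19 and 2.35 in KO and 2.71, 3.07 and 3.41 in WT. Relative to shared regions both regions overlapped between the genotypes. The weaker region at chr2:71851907-71852531 was 0.600, 0.688 and 0.609 list medians in KO and 1.07, 1.11 and 0.793 in WT. Relative to shared regions it overlapped, at 0.444, 0.550 and 0.467 in KO and 0.667, 0.638 and 0.489 in WT, as it did per M tags. The WT-only region chr2:71801673-71802082 had 22, 26 and 19 tags in WT.

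A neighbouring region of Itga6, chr2:71809866-71810488, was the second tallest and did not follow the tallest. It held 53, 39 and 66 tags in KO and 71, 77 and 83 in WT, whereas the tallest held 52, 35 and 54 in KO and 76, 83 and 99 in WT. The neighbour was higher in KO relative to shared regions, at 1.96, 1.95 and 2.20 against 1.58, 1.64 and 1.77 in WT, and it was the integrin region that was higher per M tags, at 6.45, 8.26 and 6.40 in KO against 5.44, 5.96 and 5.45 in WT. Relative to the list median it overlapped, at 2.65, 2.44 and 2.87 in KO and 2.54, 2.85 and 2.86 in WT. The ratio of neighbour to tallest within a library, which needs no scale, was 1.02, 1.11 and 1.22 in KO and 0.934, 0.928 and 0.838 in WT, so that the neighbour was the taller in all 3 KO libraries and the lower in all 3 WT libraries. The KO mean was 1.12 ± 0.102 and the WT mean 0.900 ± 0.0535 (SD, n = 3 each). Of 9138 genes with a second shared region, 4.38% had a ratio higher in KO with no overlap and 14.5% a lower one. This ratio was chosen after the values were seen and was not tested. Leaving out any 1 library kept the difference of means between 0.167 and 0.268. Of the other members Itgae had the ratio lower in KO, at 0.422, 0.263 and 0.466 against 0.475, 0.521 and 0.484 in WT, a difference of -0.110 that was -0.0496 without KO replicate 2, and -0.0258 where the mean of all peaks in a region was taken in place of the tallest.

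**Figure D4:**
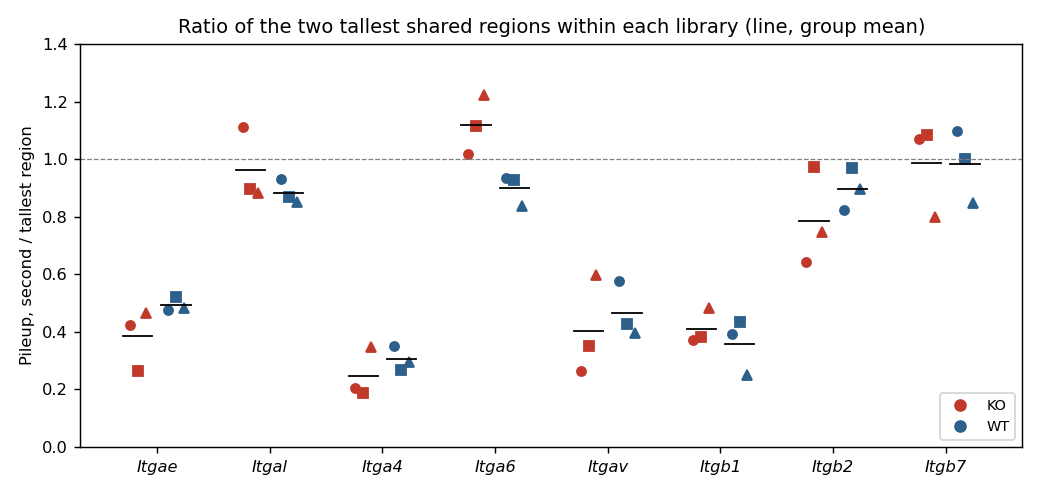
Pileup of the second tallest over that of the tallest shared region of each gene (vertical axis, a ratio within 1 library; dashed line at equal height), KO in red left of WT in blue, with circles, squares and triangles for the libraries in the order of the peak counts and lines for group means. At Itga6 all KO libraries lie above 1, from 1.02 to 1.22, and all WT libraries below, from 0.838 to 0.934.

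Itgav, the αv subunit, had its tallest region over the printed promoter, chr2:83723831-83725293. It stood at 2.45, 2.50 and 2.26 list medians in KO and 2.36, 3.30 and 2.62 in WT, and the spread among WT libraries (SD 0.484) was greater than the difference of the means. A region 49.2 kb into the gene, chr2:83771242-83771766, was 0.850, 0.750 and 0.870 in KO and 1.25, 1.07 and 1.38 in WT. Relative to shared regions these overlapped, at 0.630, 0.600 and 0.667 in KO and 0.778, 0.617 and 0.851 in WT. The region inside the span within 1 kb of its lower end, chr2:83722923-83723264, was called in KO replicates 1 and 2, with 26 and 15 tags, and in all WT libraries, with 32, 37 and 35 tags.

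**Figure D5:**
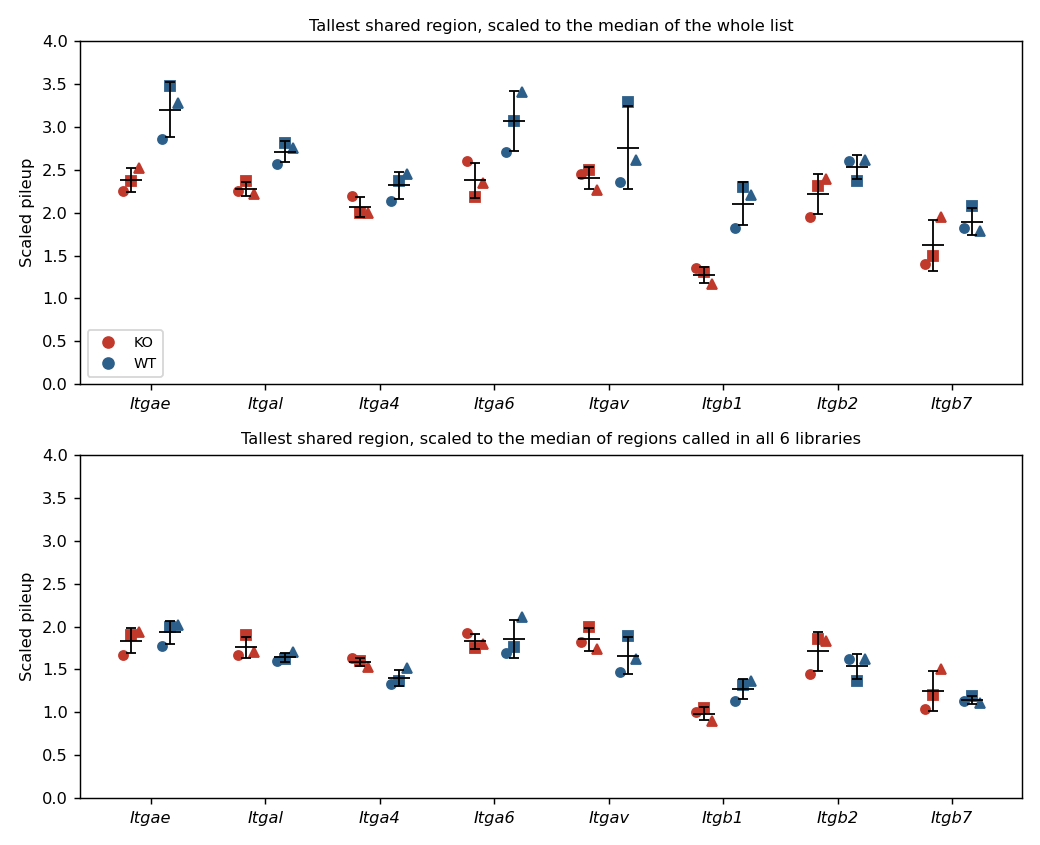
Pileup of the tallest shared region of each gene over the median of the whole list (top) and over the median of the regions called in all 6 libraries (bottom), KO in red left of WT in blue; circles, squares and triangles are the libraries in the order of the peak counts, and bars are mean ± SD (n = 3). KO lies below WT with no overlap at Itgae, Itgal, Itga6 and Itgb1 in the top panel, and in the bottom panel at Itgb1, while Itga4 lies above.

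In KO the order ran from Itgav at 2.40 ± 0.126 list medians through Itgae (2.38 ± 0.136), Itga6 (2.38 ± 0.208), Itgal (2.28 ± 0.0832), Itgb2 (2.22 ± 0.235) and Itga4 (2.07 ± 0.115) to Itgb7 (1.62 ± 0.297) and Itgb1 (1.28 ± 0.0928; SD, n = 3 each). Neighbours overlapped in range except Itga4 with Itgb7 and Itgb7 with Itgb1. In WT the order ran from Itgae (3.20 ± 0.318) through Itga6 (3.07 ± 0.350), Itgav (2.76 ± 0.484), Itgal (2.71 ± 0.127), Itgb2 (2.53 ± 0.141) and Itga4 (2.32 ± 0.159) to Itgb1 (2.11 ± 0.252) and Itgb7 (1.90 ± 0.155), and all neighbours overlapped. Within their own lists these regions ranked between the 57.0th and 91.8th percentile of pileup. Averaged over the shared regions of a gene, 7 of 8 members were lower in KO with no overlap relative to the list median, all but Itgb7, against 69.4% of genes, and none was higher, against 0.0628%. Relative to shared regions Itgae (log2 ratio -0.11) and Itgb1 (-0.32) were lower, against 6.23% of genes, and Itgal (0.16) and Itga6 (0.11) higher, against 23.4%.

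The genes whose tallest region was most like that of a member over the 6 libraries were found by Euclidean distance of log2 heights among 14320 genes with a shared region. For Itgae there were 14319, since Haspin, which holds the same region and so the same values, was left out. For Itgal these were Dtx4 (distance 0.0808) and Pcgf6 (0.111), and for Itgae they were Nudcd3 (0.116) and Gpr135 (0.117). For Itgav they were Chchd6 and H2-T-ps, for Itga6 Nanos1 and Ttc27, for Itga4 Prss16 and Chst15, for Itgb2 Dpp4 and Zfp273, and for Itgb7 Gm46382 and Plaat3. Itgb1 was farthest from its nearest, Gm45915 (0.245) and Fam234b (0.260).

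The other genes of the pathway also held fewer peaks in KO, where the whole lists were shorter. The other 18 integrin subunit genes had 116 regions, 53 of them shared, and 71 to 78 peaks in KO against 98 to 101 in WT. As a share of each list they held 0.183% to 0.191% in KO and 0.181% to 0.189% in WT, which overlapped. Counts were lower in KO with no overlap at 7 of the 18, against 15.5% of all genes, and higher at 0, against 0.388%. The 15.5% covers every gene with a peak, and neither this list nor the next was matched to it by peaks per gene. WT-only regions numbered 4 of the 116, against 4.66% of all regions, at Itga10, Itga11, Itgb3 and Itgb8. The tallest shared regions of these subunits stood at Itga3, Itga1, Itga7 and Itga10, at 3.73, 2.85, 2.72 and 2.64 list medians over all libraries. At 21 genes of integrin activation, such as the talin and kindlin proteins that bind β tails and the adaptors that link them to the T cell receptor, there were 216 regions, 105 shared and 13 WT-only (4.66% of all regions were), with 132 to 153 peaks in KO and 185 to 194 in WT. Their share of each list overlapped, at 0.344% to 0.358% in KO and 0.334% to 0.364% in WT. Counts were lower in KO with no overlap at 8 of the 21, against 15.5% of all genes, and the tallest shared regions stood at Sharpin (4.43), Vcl (4.31), Pxn (3.91) and Cytip (3.89), all of them taller than any of the 8 members. The 6 ligand genes had 19 regions, 8 shared, with 12 to 14 peaks in KO and 16 to 18 in WT, and the tallest at Icam1 (4.03), Madcam1 (3.93), Icam2 (2.82) and Cdh1 (1.35). Their share of each list overlapped, at 0.0307% to 0.0328% in KO and 0.0300% to 0.0341% in WT. Shared regions made up 45.7% of those at the other subunits, 48.6% at the activation genes and 42.1% at the ligands, against 45.4% of all regions. Overlap with other genes was not listed for these regions, so the tallest region at a gene can belong to a neighbouring gene.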

How the data were processed

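The labels' genotype set the group of each library and the number in its title its name (1, 2 and 4 for KO, 2, 4 and 6 for WT). The submitters' processing notes name Bowtie2 2.3.1, Picard 1.88 and the build mm10. Per the file headers, each library had its own peak calls, made without a control library by MACS 2.1.1.20160309 at a q-value of 0.05, with a tag shift of -100 bp, a tag extension to 200 bp, 1 tag kept per position and a local window of 10000 bp. The deposited pileup is an unscaled signal: how many extended tags cover the summit. That height is rated by the deposited −log10 p-value and the deposited −log10 q-value over the local background, and the deposited fold enrichment sets the height over that background as a ratio. Only the q-value was used, for a stricter threshold. A fixed q-value lets a deeper library call weaker sites.

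Peaks sharing at least 1 bp were merged into regions. A region belonged to a gene if it lay within 10 kb of its RefSeq span on GRCm38.p6, which gives no exons. Of several peaks of a library in a region, the tallest counted. Pileups were divided by the list median, and as alternatives by the median of regions called in all 6 libraries or by tags. Two-sided exact permutation tests over all 20 assignments compared the counts per library and per gene, with Benjamini-Hochberg adjustment over 16246 genes. Other alternatives were a stricter q-value, lists cut to equal length, flanks of 5 kb or none, summit windows, the mean of peaks, leaving out each library and pairing by shared number. Named regions are the tallest shared, those over the start or a gene end, group-only ones and up to 2 per gene with the widest separated heights. The members and lists were chosen with earlier results of these data known. All 74 genes of the other lists were matched, and 1 marker gene is not reported here. The region step was tested by planting known changes in the deposited lists, and the permutation step on a small set of made-up values. Calculations ran in Python 3.11.15 with SciPy 1.17.1, pandas 2.3.3, NumPy 2.4.6 and statsmodels 0.14.6, and figures were drawn with Matplotlib 3.10.9.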

Additional observations from a re-analysis of the deposited data

How the results depend on the processing

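With every list held to the length of the shortest, 37266 peaks, the direction of the integrin peak count turned round to 2.33 more in KO (exact permutation p = 0.4), no region was WT-only, 0 genes separated by peaks and 2 by mean height. Peaks then differed by 0.667 at Itgae, 0.667 at Itgal, 1 at Itgav and 0.333 at Itgb1, with KO higher, and mean heights had log2 ratios of 0.16 at Itgal, 0.19 at Itga4, 0.11 at Itga6, 0.027 at Itgav, 0.038 at Itgb2 and 0.12 at Itgb7. The median of shared regions gave 2 lower regions, 4 higher regions and 2 lower genes, with log2 ratios of 0.16 at Itgal, 0.11 at Itga4, 0.11 at Itga6, 0.016 at Itgav, 0.030 at Itgb2 and 0.11 at Itgb7. Tags gave 1, 1 and 0, with 0.20, 0.15, 0.14, 0.048, 0.078 and 0.14 at those genes. So 6 of the 8 genes changed sign under each of these, Itgb7 among them although its groups overlapped. With no flank 4 genes separated by peaks. For lists of equal length and for no flank, the shares over all regions and all genes were not computed. The counts under these settings therefore cannot be set against a background. Beyond what fewer peaks or the scale itself sets, the cause was not tested.

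Without 1 library at a time, the difference in integrin peaks (KO minus WT) ran from -12.2 to -7.67, that in their share from 0.00637 to 0.0123 percentage points, that in covered length from -10.9 to -8.29 kb, regions called in all libraries from 30 to 34, WT-only regions from 3 to 6, KO-only regions stayed at 0, lower regions ran from 13 to 18, genes separated by peaks from 2 to 3 and by height from 7 to 8. Leaving out a library makes no overlap easier to reach. It also makes a region easier to call in all libraries or as WT-only. The counts of these regions, of lower regions and of separated genes therefore cannot be set against those of all 6 libraries. Paired by the shared numbers 2 and 4 (replicate block), the peaks differed by -13.5, the share by 0.00499 percentage points and the covered length by -11.0 kb. In both pairs KO was lower than WT by peaks at 4 genes and by mean height at 8. That is a looser criterion than no overlap between the groups, so these counts cannot be set against those above. The numbers were not shown to pair libraries, as same-numbered libraries had correlations of deviations of -0.0208 and -0.0519.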
